A study of Homo sapiens with 12 samples.

Results

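The 9 genes described here encode factors that remove or prevent R-loops: the ribonucleases H RNASEH1, RNASEH2A, RNASEH2B and RNASEH2C, the helicases AQR, DHX9 and DDX5, the topoisomerase TOP1, and the THO subunit THOC1. They were taken by name from a table of new RNA counts for 23434 human genes, through their Entrez identifiers, by a rule that used no count. The choice was made with earlier results of these data known. All 9 had a row, and 8 of the 9 had enough counts to be tested in each comparison. RNASEH2B was too low to be tested.

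An R-loop forms when new RNA pairs with the DNA strand it was copied from and leaves the other DNA strand single. RNase H enzymes cut the RNA of such hybrids, helicases unwind them, topoisomerase I relaxes the negative supercoils behind RNA polymerase that let them form, and THO packages the new RNA so that it does not pair back. Replication forks can meet R-loops on transcribed genes, and oncogenic Myc drives both transcription and replication.

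The cells were U2OS, a human osteosarcoma line, carrying MycER, a chimera of Myc and the estrogen receptor that is active once its ligand 4-hydroxytamoxifen (OHT) is given. The study asked how CDK12, a kinase of elongating RNA polymerase II, bears on transcription under Myc activation. There were 4 groups of 3 libraries. All cells were infected with a virus for an shRNA and received doxycycline at 1 µg/mL to switch it on: a non-targeting one in the groups shNT and shNT OHT, and one against CDK12 in the groups shCDK12 and shCDK12 OHT. The OHT groups had 300 nM OHT for 40 h, and the others none. All 4 groups were then arrested in mitosis with nocodazole at 100 ng/mL for 8 h, shaken off and released for 12 h. RNA made in the last 2 h was labelled with 0.5 mM 5-ethynyl-uridine (EU), captured after 10 µg of labelled mouse RNA was added to 40 µg from the human cells, and sequenced (EU-seq). The values therefore follow RNA made within the pulse and not the amount of mature RNA. Neither the shRNA sequences nor the promoter that drives MycER are given in the sources used here. Nothing in the labels says whether the 3 libraries of a group came from separate cultures, so that p-values measure only the spread between these libraries.

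New CDK12 RNA was read beside the labels. Its level, in CPM (counts scaled to library size, with TMM factors), was 323, 289 and 300 in the shNT libraries and 293, 277 and 298 in the libraries labelled shCDK12, which overlapped (log2 fold change −0.08 ± 0.08 (SE), adjusted p = 0.447, edgeR). With OHT it was 434, 356 and 400 in shNT and 215, 208 and 218 in the libraries labelled shCDK12, a difference of −0.88 ± 0.11 on the log2 scale (adjusted p = 0.00011, edgeR). The difference between these differences was −0.83 ± 0.13 (adjusted p = 4.55e-05, edgeR). New CDK12 RNA was thus lower in the libraries labelled shCDK12 only where OHT was present. The amounts of mature CDK12 RNA and of its protein were not measured, so that the knockdown itself cannot be judged from these values. Of 12 Myc target genes, OHT raised 9 and lowered 0 in shNT and raised 0 and lowered 10 in the libraries labelled shCDK12. The opposite OHT responses of the Myc targets, a list chosen with earlier results of these data known, put the shCDK12 labels in doubt. New CDK12 RNA cannot decide this, since mature CDK12 RNA was not measured. These counts do not settle whether the labels are right. The groups are named by their labels throughout, and every comparison with an shCDK12 group rests on them. Were the 2 shCDK12 groups exchanged, every OHT difference within them would turn its sign, and each would be compared with the other shNT group. Mean CDK12 would then be 214 CPM beside 304 in shNT, and 289 beside 397 in shNT OHT. Of the 12 Myc targets, OHT would raise 10 and lower 0. Whether the groups were exchanged was not tested. The libraries held from 1251695 to 10447836 counts, with the smallest in shNT OHT. Replicates correlated least in shNT OHT, with a median r of log2 CPM from 0.930 to 0.947 against 0.972 or more elsewhere. Of 9 osteosarcoma and mesenchymal markers, RUNX2, SPARC, COL1A1 and VIM were well above 0 in every library and COL1A2, BGLAP and SP7 were at or near 0. CDH11 had means of 10.9 CPM in shNT, 4.72 in shNT OHT, 0.657 in shCDK12 and 0.829 in shCDK12 OHT. ALPL had means of 6.49, 5.49, 2.95 and 3.56 CPM in the same order. The sum of the 9 markers ran from 847 to 934 CPM in shNT and 671 to 721 in shNT OHT. It ran from 368 to 378 in shCDK12 and 464 to 482 in shCDK12 OHT. The sum of 8 epithelial, blood, liver and endothelial markers lay between 9.52 and 17.0 CPM. Among them EPCAM, an epithelial adhesion molecule, had means of 0.820 CPM in shNT, 1.58 in shNT OHT, 8.03 in shCDK12 and 2.64 in shCDK12 OHT, and fell with OHT in the libraries labelled shCDK12 (−1.60 ± 0.26, adjusted p = 6.08e-05, edgeR). CDH1, epithelial cadherin, had means of 9.57, 9.32, 6.10 and 7.63 CPM in the same order. Whether these differences bear on the results was not tested. The mouse RNA has no row in the table, so that a change in the total amount of new RNA cannot be seen, and every change is relative to the other genes.

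Per kb of exon the 9 genes spanned a wide range. In shNT, DDX5 was highest at 145 ± 1.97 CPM per kb (SD, n = 3), followed by DHX9 at 58.0 ± 3.70. TOP1 came next at 27.7 ± 3.58 and RNASEH2C at 23.0 ± 2.51, and their libraries did not overlap. RNASEH2A stood at 11.3 ± 0.531 CPM per kb and THOC1 at 8.09 ± 2.10. RNASEH1 (4.24 ± 0.234), AQR (4.20 ± 0.331) and RNASEH2B (2.60 ± 1.81) closed the order, and neighbours among these last genes overlapped. The first 2 places were the same in all 4 groups. TOP1 and RNASEH2C shared one level in shNT OHT, at 28.9 ± 1.61 and 28.9 ± 5.63 CPM per kb. In both shCDK12 groups THOC1 (11.1 ± 3.25 without and 9.04 ± 0.620 with OHT) stood above RNASEH2A (7.41 ± 1.19 and 6.56 ± 0.613). The lengths are those of the MANE Select transcripts of GENCODE v44, since the annotation used for counting is not given, so that the order between genes is approximate.

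**Figure D1:**
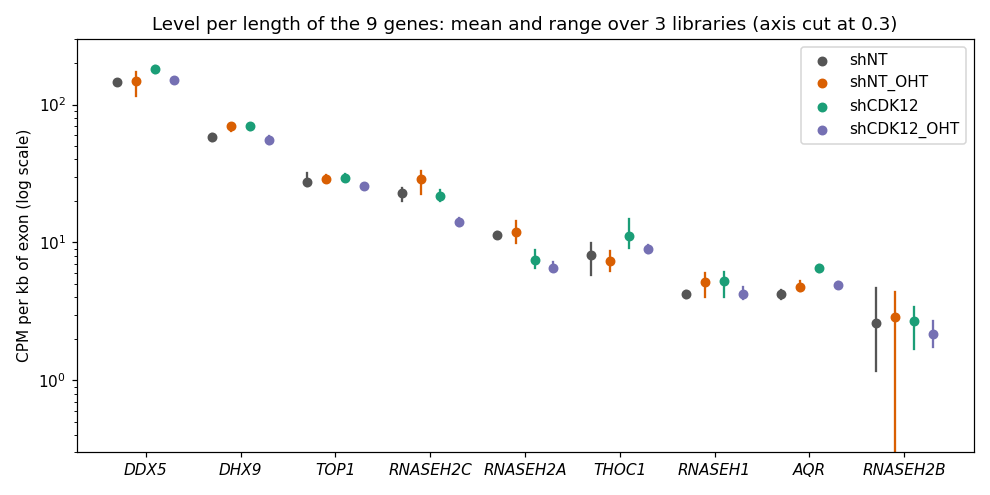
Level of each gene in CPM per kb of exon (log axis) by group, with the mean (point) and the range of 3 libraries (line). DDX5 and DHX9 lead in every group, and RNASEH2B, with 1 library at 0, is lowest (that line runs past the lower end of the axis at 0.3).

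Myc with its partner MAX binds the E-box CACGTG in promoters, so the 250 bases upstream of each gene's start were read from the RefSeq promoters of GRCh38.p14. All 9 genes matched. The counts were made on hg19, and no coordinate was converted. Beside CACGTG and its variant CACGCG, other elements were searched, all on both strands: the GC box GGGCGG, the CCAAT box, the TATA box TATAAA, and 2 E2F sites, one written TTTCCCGC and the other TTTGGCGC. CACGTG stood in 1 of 9 members, DDX5, against 6.34% of 35116 promoters, and CACGCG in 2 of 9, DDX5 and DHX9, against 9.72%. The GC box stood in 6 of 9 (42.6% of all promoters) and the CCAAT box in 3 of 9 (32%), while the TATA box (10.7%) and the E2F sites (1.93%) stood in 0 of 9. No match overlapped one of another motif. The promoters of RNASEH2C, AQR and DHX9 are shown because the OHT responses of these genes differed between the shRNA backgrounds, and that of DDX5 because it is the most abundant member and the one with the E-box. Capitals mark both E-box forms and the CCAAT box, which reads ATTGG on the other strand.
RNASEH2C: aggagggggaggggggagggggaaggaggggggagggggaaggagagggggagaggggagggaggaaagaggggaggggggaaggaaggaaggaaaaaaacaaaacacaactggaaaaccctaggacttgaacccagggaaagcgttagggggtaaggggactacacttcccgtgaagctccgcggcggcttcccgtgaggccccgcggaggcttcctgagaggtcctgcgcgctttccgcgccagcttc
AQR: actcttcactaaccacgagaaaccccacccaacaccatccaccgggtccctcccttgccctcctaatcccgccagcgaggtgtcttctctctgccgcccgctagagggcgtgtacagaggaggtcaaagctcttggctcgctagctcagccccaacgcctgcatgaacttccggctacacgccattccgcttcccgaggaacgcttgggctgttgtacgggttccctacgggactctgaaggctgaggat
DHX9: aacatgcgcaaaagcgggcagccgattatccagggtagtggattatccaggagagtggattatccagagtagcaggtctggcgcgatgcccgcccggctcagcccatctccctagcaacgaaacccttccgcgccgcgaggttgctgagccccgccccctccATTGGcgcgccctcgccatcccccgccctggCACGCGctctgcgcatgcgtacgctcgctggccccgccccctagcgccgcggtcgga
DDX5: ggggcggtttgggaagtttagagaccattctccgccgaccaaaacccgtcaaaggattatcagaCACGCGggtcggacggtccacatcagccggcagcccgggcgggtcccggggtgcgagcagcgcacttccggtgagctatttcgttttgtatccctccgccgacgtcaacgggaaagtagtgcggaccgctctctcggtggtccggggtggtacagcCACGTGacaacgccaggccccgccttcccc
These windows lie at chr11:65720799-65721048 (minus strand) for RNASEH2C, chr15:34969743-34969992 (minus strand) for AQR, chr1:182839097-182839346 (plus strand) for DHX9 and chr17:64506639-64506888 (minus strand) for DDX5, and each is written 5′ to 3′ on its gene's strand. In DDX5, which has 3 annotated starts of which the most upstream was used, CACGTG begins 30 bases and CACGCG 186 bases before the start. In DHX9 CACGCG begins 57 bases and ATTGG 88 bases before it. The windows of RNASEH2C and AQR hold neither E-box form, and AQR has 1 GC box. Their GC content was 63.6% in RNASEH2C, 60.4% in AQR, 67.6% in DHX9 and 64% in DDX5, against a median of 58% for all promoters. These letters are a description of the sequence and not of binding.

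RNASEH2C, a structural subunit of the RNase H2 complex, fell most. Its CPM were 63.9, 65.2 and 53.1 in shNT and 86.8, 59.4 and 83.2 in shNT OHT. They were 52.6, 57.5 and 63.7 in shCDK12 and 37.9, 39.6 and 35.0 in shCDK12 OHT. The last group lay below every other library. Within the libraries labelled shCDK12, OHT lowered RNASEH2C by a log2 fold change of −0.62 ± 0.11 (0.649-fold, adjusted p = 0.000146, edgeR). Against shNT OHT, shCDK12 OHT was lower by −1.03 ± 0.16 (0.489-fold, adjusted p = 0.000458, edgeR). In shNT the log2 fold change with OHT was 0.34 ± 0.18, which did not pass (adjusted p = 0.192, edgeR), but without replicate 2 of shNT OHT, the shallowest library, it was 0.51 (adjusted p = 0.0384). The OHT responses of both backgrounds differed by −0.97 ± 0.20 (adjusted p = 0.000655, edgeR). Without OHT the libraries labelled shCDK12 and shNT overlapped (−0.08 ± 0.13, adjusted p = 0.592, edgeR). The gene overlaps KAT5 in RefSeq, and the use of strand in counting is not given. KAT5 had means of 47.6, 55.6, 40.9 and 35.9 CPM in shNT, shNT OHT, shCDK12 and shCDK12 OHT, so that both genes were highest in shNT OHT and lowest in shCDK12 OHT, and their reads cannot be told apart here.

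RNASEH2A, the catalytic subunit of RNase H2, was lower in both groups labelled shCDK12. Its CPM were 12.6, 13.9 and 13.0 in shNT and 16.6, 11.5 and 13.3 in shNT OHT. They were 10.2, 7.56 and 8.14 in shCDK12 and 7.20, 8.46 and 7.26 in shCDK12 OHT. No library labelled shCDK12 reached the level of any shNT library, with or without OHT. The log2 difference was −0.63 ± 0.25 without OHT (adjusted p = 0.0325, edgeR) and −0.86 ± 0.25 with OHT (adjusted p = 0.0168, edgeR), on counts from 14 to 89 per library. Neither call was firm: the first was lost with DESeq2 (adjusted p = 0.0698) and without replicate 2 of shNT, replicate 2 of shCDK12 or replicate 3 of shCDK12 (adjusted p = 0.0969, 0.118 and 0.0921), and the second without replicate 1, 2 or 3 of shCDK12 OHT (adjusted p = 0.081, 0.0523 and 0.0681). OHT gave no call in either background (0.09 ± 0.29, adjusted p = 0.855, in shNT and −0.14 ± 0.21, adjusted p = 0.618, in the libraries labelled shCDK12, both edgeR).

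RNASEH2B, the third subunit, had 0 to 49 counts per library and lay under the minimum mean normalized count of 32. Its CPM were 3.05, 1.76 and 7.02 in shNT, 6.58, 6.60 and 0 in shNT OHT, 2.55, 5.14 and 4.63 in shCDK12, and 4.08, 2.66 and 3.08 in shCDK12 OHT. The library at 0 allows up to 0.870 CPM at a floor of 3 counts, which covers counting error only. All 4 groups overlapped. Fitted with no minimum, a choice made after its counts were seen, its log2 fold changes ran from −0.55 ± 0.69 for the difference of the OHT responses to 0.28 ± 0.44 for shCDK12 against shNT without OHT, with adjusted p from 0.388 to 0.919 (edgeR). No change of RNASEH2B was detected at this depth, with SE from 0.32 to 0.69 between comparisons, which does not show that there was none. RNASEH2B overlaps the antisense gene RNASEH2B-AS1, which had 1 to 26 counts per library.

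A ratio of counts within a library does not depend on scaling between libraries, apart from any count added to it. With 1 count added to each gene because of the 0, RNASEH2A had 0.201, 0.215 and 0.252 counts per count of RNASEH2C in shNT and 0.197, 0.133 and 0.130 in shCDK12. These groups did not overlap, by a mean log2 difference of −0.56 (exact two-sided permutation p = 0.1, the smallest that 3 against 3 libraries can give; 0.3 after Benjamini-Hochberg adjustment over 12 ratio comparisons). With OHT the ratio was 0.194, 0.205 and 0.163 in shNT and 0.193, 0.215 and 0.211 in shCDK12, which overlapped (exact permutation p = 0.3, adjusted 0.4). The ratio of RNASEH2A to RNASEH2B overlapped in all 4 comparisons and ranged from 1.46 to 47.0, the latter in the library without RNASEH2B counts.

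RNASEH1, the enzyme that cuts longer hybrids in the nucleus and mitochondria, had 26 to 281 counts per library. Its CPM were 23.4, 22.8 and 21.0 in shNT, 32, 21.4 and 29.0 in shNT OHT, 21.3, 29.5 and 32.2 in shCDK12, and 20.5, 25.3 and 21.8 in shCDK12 OHT. The groups overlapped in every comparison. The log2 fold change with OHT was 0.31 ± 0.24 in shNT (adjusted p = 0.38, edgeR) and −0.30 ± 0.16 in the libraries labelled shCDK12 (adjusted p = 0.118, edgeR). The difference between them, −0.63 ± 0.27, did not pass (adjusted p = 0.0689, edgeR) but did with DESeq2 (−0.69, adjusted p = 0.0363). It also passed without replicate 2 of shNT OHT (−0.73, adjusted p = 0.0295) or replicate 1 of shCDK12 (−0.77, adjusted p = 0.0256). Without replicate 1 of shCDK12, the only library of that group near the shNT level, OHT gave −0.44 (adjusted p = 0.0143) and shCDK12 against shNT gave 0.44 (adjusted p = 0.0379).

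**Figure D2:**
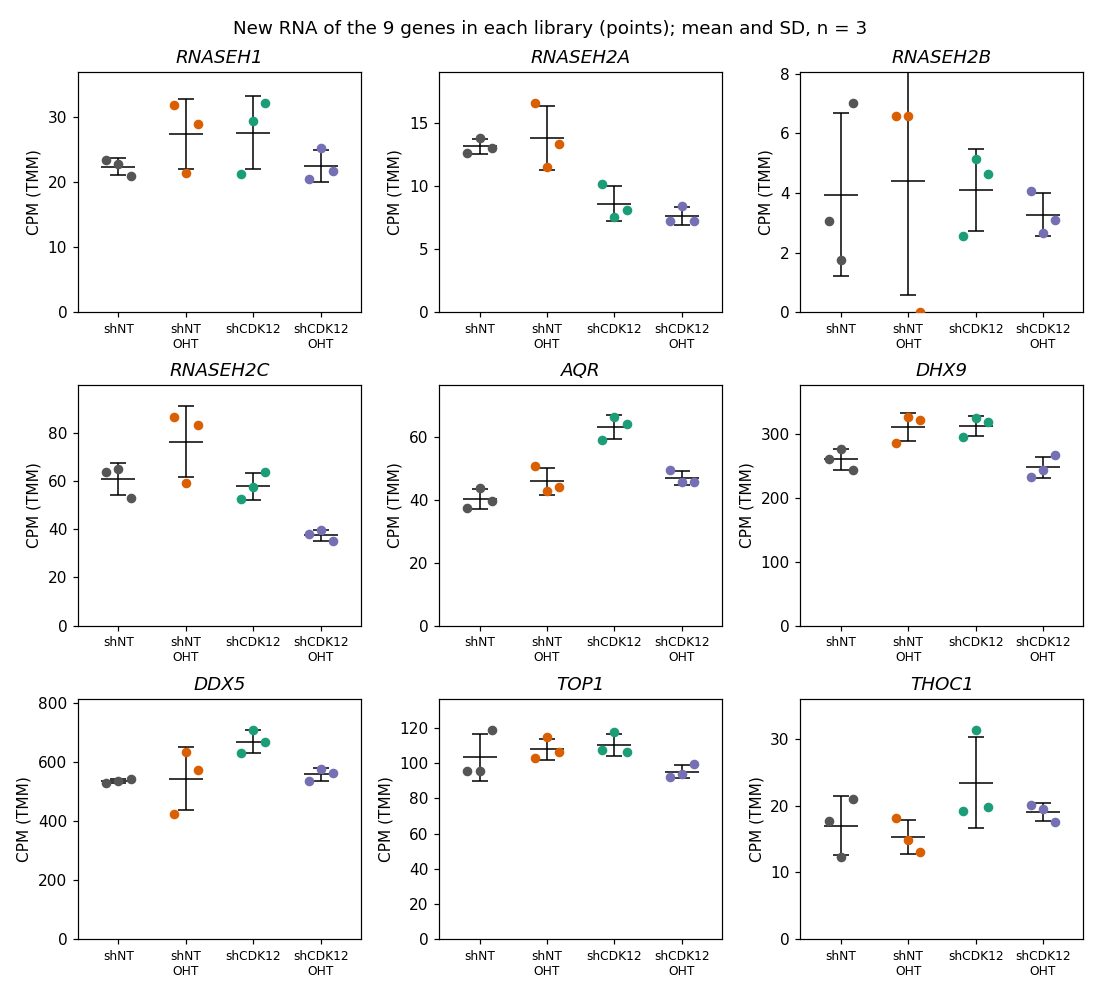
CPM (counts scaled to library size with TMM factors, axes from 0) of the 9 genes in each of 12 libraries, with the mean and SD of 3 libraries per group. RNASEH2C is lowest in shCDK12 OHT, AQR is highest in shCDK12, and RNASEH2A is lower in both groups labelled shCDK12 than in shNT.

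AQR, the helicase that joins the spliceosome at introns and also unwinds R-loops, was highest in shCDK12. Its CPM were 37.5, 43.7 and 39.6 in shNT and 50.8, 42.9 and 44.1 in shNT OHT. They were 59.1, 66.4 and 64.0 in shCDK12 and 49.6, 45.7 and 45.7 in shCDK12 OHT. Every shCDK12 library without OHT lay above the other 9 libraries. The libraries labelled shCDK12 exceeded shNT without OHT by 0.65 ± 0.13 on the log2 scale (1.57-fold, adjusted p = 0.000173, edgeR). OHT lowered AQR in the libraries labelled shCDK12 by −0.43 ± 0.10 (0.741-fold, adjusted p = 0.00172, edgeR), a comparison that shares the shCDK12 libraries with the former. In shNT OHT gave 0.19 ± 0.18 (adjusted p = 0.505, edgeR), and the responses differed by −0.63 ± 0.19 (adjusted p = 0.00975, edgeR). With OHT the groups overlapped (0.04 ± 0.14, adjusted p = 0.826, edgeR), so that the excess over shNT was seen only without OHT.

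DHX9, an RNA helicase A that unwinds RNA and RNA-DNA hybrids, had 397 to 3103 counts per library and so one of the more precise values. Its CPM were 261, 277 and 244 in shNT and 287, 327 and 322 in shNT OHT. They were 296, 326 and 319 in shCDK12 and 234, 243 and 267 in shCDK12 OHT. The libraries of shNT OHT and of shCDK12 each lay above those of shNT and of shCDK12 OHT. OHT lowered DHX9 in the libraries labelled shCDK12 by −0.34 ± 0.08 (0.789-fold, adjusted p = 0.00146, edgeR). In shNT the log2 fold change was 0.25 ± 0.11, higher in all 3 libraries but not past the threshold (adjusted p = 0.135, edgeR), and 0.32 (adjusted p = 0.0238) without replicate 1 of shNT OHT. The responses differed by −0.59 ± 0.14 (adjusted p = 0.00133, edgeR). The libraries labelled shCDK12 were higher than shNT without OHT (0.26 ± 0.08, adjusted p = 0.0084, edgeR) and lower with OHT (−0.31 ± 0.11, adjusted p = 0.0336, edgeR). The last call was lost without replicate 1, 2 or 3 of shCDK12 OHT (adjusted p = 0.155, 0.136 and 0.054) and without replicate 3 of shNT OHT (adjusted p = 0.0688).

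DDX5 (p68), a DEAD-box helicase, resolves R-loops and takes part in splicing and termination. Its CPM were 527, 534 and 542 in shNT and 630, 707 and 666 in shCDK12, which did not overlap. In shCDK12 OHT they were 535, 577 and 561, and in shNT OHT 425, 634 and 571, the widest spread of any group. Replicate 1 of shNT OHT was the lowest of all 12 libraries. Without OHT the libraries labelled shCDK12 were higher by 0.32 ± 0.08 (1.25-fold, adjusted p = 0.000933, edgeR), and OHT lowered DDX5 in them by −0.26 ± 0.07 (0.835-fold, adjusted p = 0.00655, edgeR; 0.0688 in 1 fit of all 12 libraries). In shNT OHT gave 0.01 ± 0.13 (adjusted p = 0.955, edgeR). The difference of the responses was −0.28 ± 0.16 (adjusted p = 0.158, edgeR), and −0.43 (adjusted p = 0.00361) without replicate 1 of shNT OHT. With OHT shCDK12 and shNT overlapped (0.06 ± 0.13, adjusted p = 0.729, edgeR). DDX5 overlaps CEP95 and hosts MIR3064 and MIR5047 in RefSeq. CEP95 had means of 126, 106, 106 and 92.4 CPM in shNT, shNT OHT, shCDK12 and shCDK12 OHT, so that it was highest in shNT, unlike DDX5, but also lower with OHT in the libraries labelled shCDK12.

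DDX17 (p72), the paralog of DDX5 that can stand in for it, took the opposite course in the libraries labelled shCDK12. Its CPM were 404, 470 and 406 in shNT, 346, 377 and 352 in shNT OHT, 357, 399 and 359 in shCDK12, and 502, 508 and 497 in shCDK12 OHT. The last group lay above every other library. OHT raised DDX17 there by 0.43 ± 0.07 (adjusted p = 9.49e-05, edgeR), where DDX5 fell. The counts of DDX5 per count of DDX17 were 1.31, 1.14 and 1.33 in shNT and 1.76, 1.77 and 1.86 in shCDK12. They were 1.23, 1.68 and 1.62 in shNT OHT and 1.06, 1.14 and 1.13 in shCDK12 OHT. The mean log2 ratio differed by −0.70 with OHT in the libraries labelled shCDK12, by 0.52 for shCDK12 against shNT without OHT and by −0.43 with OHT. None of these 3 pairs of groups overlapped, and each had an exact two-sided permutation p = 0.1 (adjusted 0.3), the smallest the design allows. With OHT in shNT the ratio overlapped (0.25, exact permutation p = 0.3, adjusted 0.4). How reads shared by paralogs were counted is not given.

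**Figure D3:**
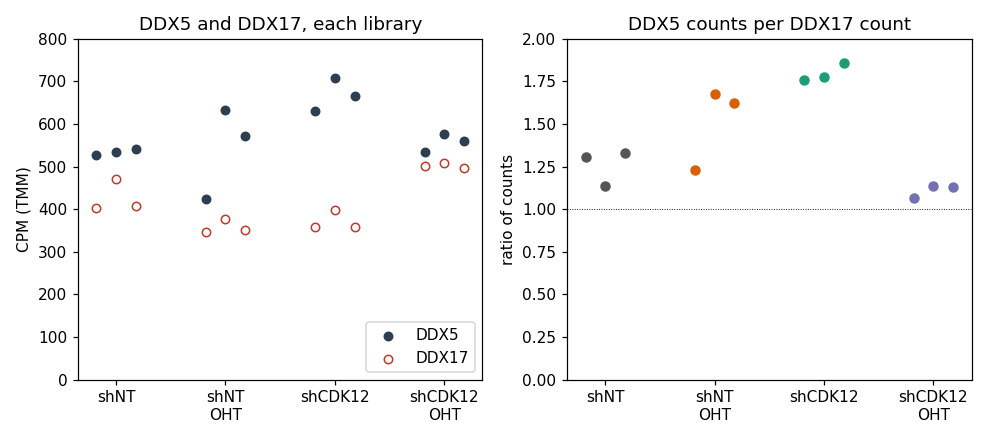
Left, CPM of DDX5 and DDX17 in each library; right, DDX5 counts per DDX17 count (1 count added to each), both with axes from 0. The ratio is 1.76 to 1.86 in shCDK12 and 1.06 to 1.14 in shCDK12 OHT.

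TOP1, DNA topoisomerase I, had group means between 95.3 and 111 CPM. Its CPM were 95.6, 95.6 and 119 in shNT, 103, 115 and 106 in shNT OHT, 108, 118 and 106 in shCDK12, and 92.2, 94.1 and 99.4 in shCDK12 OHT. The last group lay below both shCDK12 and shNT OHT and overlapped shNT. OHT lowered it in the libraries labelled shCDK12 by −0.22 ± 0.09 (adjusted p = 0.0433, edgeR). That call was lost without any of 5 of the 6 libraries, namely replicate 2 or 3 of shCDK12 and replicate 1, 2 or 3 of shCDK12 OHT (adjusted p from 0.0578 to 0.142). In shNT the log2 fold change with OHT was 0.06 ± 0.15 (95% interval −0.24 to 0.36, adjusted p = 0.818, edgeR). The responses differed by −0.29 ± 0.16 (adjusted p = 0.161, edgeR), and by −0.40 (adjusted p = 0.0483) without replicate 3 of shNT, its highest library. shCDK12 against shNT gave 0.11 ± 0.11 without OHT (adjusted p = 0.379, edgeR) and −0.16 ± 0.12 with OHT (adjusted p = 0.31, edgeR). The pseudogene TOP1P1 had 1 to 22 counts per library and TOP1P2 none.

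THOC1, a subunit of the THO complex that couples transcription to export, had 18 to 299 counts per library. Its CPM were 17.8, 12.3 and 21.0 in shNT, 18.2, 14.8 and 13.0 in shNT OHT, 19.2, 31.4 and 19.8 in shCDK12, and 20.1, 19.5 and 17.6 in shCDK12 OHT. Replicate 2 of shCDK12 stood above the other 11 libraries. shCDK12 against shNT without OHT passed, at 0.54 ± 0.23 (adjusted p = 0.0468, edgeR), although the groups overlapped. It did not pass without that library (0.24, adjusted p = 0.41), without replicate 1 of shNT (0.62, adjusted p = 0.059), without replicate 2 of shNT (0.32, adjusted p = 0.29) or with DESeq2 (0.54, adjusted p = 0.0712). With OHT the difference was 0.33 ± 0.21 (adjusted p = 0.231, edgeR). OHT gave −0.12 ± 0.31 in shNT (adjusted p = 0.817, edgeR) and −0.33 ± 0.18 in the libraries labelled shCDK12 (adjusted p = 0.126, edgeR). THOC1 overlaps USP14 in RefSeq, whose means were 41.6, 28.5, 61.4 and 55.9 CPM in shNT, shNT OHT, shCDK12 and shCDK12 OHT, the same order of groups as THOC1 had.

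Counted over the 8 members tested, OHT gave 0 calls in shNT, where 17.3% of all genes tested passed (9.05% higher and 8.29% lower). At an unadjusted p under 0.05 (edgeR) there was 1 (DHX9), but the share of all genes at that threshold was not counted. DESeq2 gave 0 calls at an adjusted p under 0.05. The count was 1 without replicate 1 (DHX9) or 2 (RNASEH2C) of shNT OHT. The 1782 genes called in all became 751, 670 and 818 without replicate 1, 2 or 3 of shNT, 1101 without replicate 3 of shNT OHT and 3256 in 1 fit of all 12 libraries. The median log2 fold change of the 8 members was 0.14 beside −0.03 for all genes, and the groups did not overlap in 1 of 8 (DHX9), beside 35.9% of all genes. In the libraries labelled shCDK12, OHT lowered 5 of 8 (RNASEH2C, AQR, DHX9, DDX5 and TOP1) and raised none, where 48.9% of all genes passed, 27.5% higher and 21.5% lower. The direction of this count rests on the labels of the shCDK12 groups, which are in doubt. The median of the members was −0.32 beside 0.05, and 5 of 8 did not overlap, beside 56.3%. Of the 8, RNASEH2C, AQR and DHX9 (3 members) had OHT responses that were lower in the libraries labelled shCDK12 than in shNT, beside 45.2% of all genes past the threshold (19.6% lower and 25.6% higher). Here the median was −0.44 beside 0.10. All 8 members had a negative difference of the responses, of which 5 did not pass. The share of all genes with a negative difference was not counted. These differences rest on the shCDK12 labels too.

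The shRNA comparisons gave 5 of 8 calls without OHT, near the 62% of all genes: AQR, DDX5, DHX9 and THOC1 were higher (29.6% of all genes) and RNASEH2A was lower (32.4%). The count was 3 without replicate 2 of shNT or replicate 2 of shCDK12, and with DESeq2. The groups did not overlap in 4 of 8, beside 64.5% of all genes, and the median was 0.28 beside −0.03. With OHT 3 of 8 passed, RNASEH2C, RNASEH2A and DHX9, all lower, beside 45.4% of all genes (23.8% higher and 21.6% lower). Without replicate 1, 2 or 3 of shCDK12 OHT the count was 1. The groups did not overlap in 4 of 8, beside 55.2%, and the median was −0.23 beside 0.05. RNASEH2A was the member called lower in both. Comparisons with a group in common share its libraries, so that their values are not independent of one another.

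**Figure D4:**
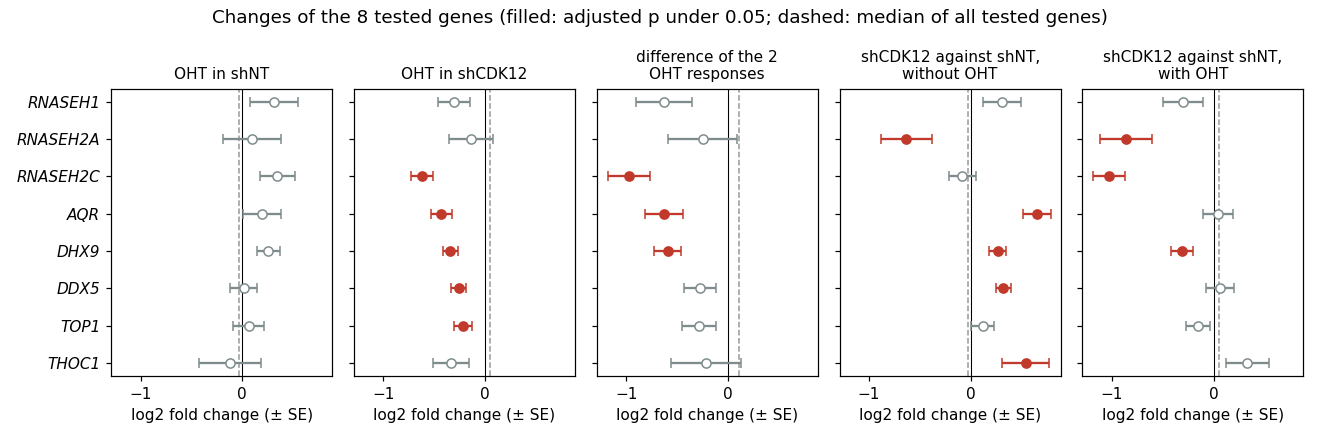
Log2 fold change with its SE for the 8 tested members in each comparison, second group minus first; filled points have an adjusted p under 0.05 (edgeR) and the dashed line is the median of all genes tested. With OHT in the libraries labelled shCDK12 all 8 points lie below 0, and 5 are filled. The share of all genes below 0 was not counted.

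Genes of the same processes moved in both directions. Of 18 other R-loop helicases 17 were tested. With OHT in shNT 2 rose, PIF1 (1.11 ± 0.26) and DDX39A (0.60 ± 0.15), and 0 fell. In the libraries labelled shCDK12 OHT raised 4 and lowered 8, led by PIF1 (−1.15 ± 0.14), DDX21 (−0.57 ± 0.07), BLM (−0.76 ± 0.11) and DDX39A (−0.58 ± 0.09). For shCDK12 against shNT 7 of the 17 were higher and 3 lower without OHT, and 2 higher and 5 lower with OHT.

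Of 8 other topoisomerases and partners, OHT raised TOP1MT in shNT (1.09 ± 0.21) and lowered 3 in the libraries labelled shCDK12: TOP2A (−0.62 ± 0.08), TOP3A (−0.59 ± 0.09) and TOP1MT (−0.30 ± 0.12). For shCDK12 against shNT without OHT 1 was higher, TOP1MT (1.03 ± 0.16), and 3 were lower, TOP2A (−0.44 ± 0.08), TOP3B (−1.01 ± 0.19) and TOP2B (−0.46 ± 0.18), whereas 4 members were higher and 1 lower. With OHT TDP2 was higher (1.07 ± 0.17), and TOP2A (−0.79 ± 0.13) and TOP3A (−0.62 ± 0.14) were lower. Among the 12 other THO and TREX subunits, 10 were tested for OHT in shNT, where ALYREF (0.52 ± 0.14) and POLDIP3 (0.53 ± 0.15) rose. In the libraries labelled shCDK12 all 12 were tested, ALYREF (−0.76 ± 0.09) and DDX39B (−0.25 ± 0.07) fell, and THOC6 (0.35 ± 0.09) and ZC3H11A (0.19 ± 0.08) rose. For shCDK12 against shNT 3 were higher and 2 lower of 12 without OHT, led by ZC3H11A (−0.71 ± 0.08), THOC6 (0.96 ± 0.13) and ALYREF (0.65 ± 0.10). With OHT 2 were higher and 3 lower of 11, led by THOC6 (0.94 ± 0.13), ALYREF (−0.62 ± 0.13) and ZC3H11A (−0.48 ± 0.11). AQR works in a complex with XAB2, ISY1, PPIE and ZNF830. Of these 4 partners PPIE (0.63 ± 0.13) and ZNF830 (0.38 ± 0.11) were higher and ISY1 (−0.51 ± 0.18) lower in shCDK12 than in shNT without OHT, and PPIE fell with OHT in the libraries labelled shCDK12 (−0.28 ± 0.10). Among 11 nucleases and RPA subunits FEN1, the flap endonuclease, rose with OHT in shNT (0.51 ± 0.14) and fell with it in the libraries labelled shCDK12 (−0.54 ± 0.08), one of 3 of 10 tested that fell while ERCC4 rose (0.49 ± 0.13). ERCC1 (−1.05 ± 0.14), ERCC4 (−1.34 ± 0.16) and RPA2 (−0.97 ± 0.14) were among 3 lower of 10 without OHT in shCDK12 against shNT, where 4 were higher.

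A list of 12 Myc target genes, chosen with earlier results of these data known, was read beside the members. Among the 9 that OHT raised in shNT were NCL (0.81 ± 0.10) and NOP56 (0.93 ± 0.12). The 10 that it lowered in the libraries labelled shCDK12 were led by NOP56 (0.498-fold), ODC1 (−0.86 ± 0.07 on the log2 scale) and NCL (−0.83 ± 0.08). This reversal puts the shCDK12 labels, and so the sign of the OHT response there, in doubt. Without OHT 9 were higher in shCDK12 than in shNT, and with OHT 9 were lower. The median log2 fold change with OHT was 0.64 in shNT and −0.57 in the libraries labelled shCDK12, beside 0.14 and −0.32 for the members. The part of this course in the members' values was not tested.

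Across the 12 libraries the members did not follow one pattern. Pearson's r of log2 CPM between pairs of members ran from −0.60 (RNASEH2A and DDX5) to 0.77 (RNASEH2A and RNASEH2C). Each member was compared with the 11699 genes above the minimum, itself left out. The most alike in pattern were RELL2 (r = 0.98) and KIF1A (0.97) for RNASEH2C, and HAUS5 and GPAA1 (both 0.97) for RNASEH2A. For AQR they were BOC and GTPBP3 (both 0.97). For DHX9 they were CYCS and HINT1 (both 0.96), and for DDX5 UTP15 and RIF1 (both 0.96). Likeness was weaker for RNASEH1 (MCIDAS 0.87, EMC9 0.86), THOC1 (SNRNP48 0.86, PSMA3 0.85), TOP1 (ZCCHC7 0.85, CLNS1A 0.84) and RNASEH2B (SUGT1P4-STRA6LP 0.89, NSMAF 0.86). These correlations run over libraries that share groups and differ in depth, and describe these 12 libraries only.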

How the data were processed

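New RNA was captured by EU labelling and sequenced in 12 libraries, 3 for each of shNT, shNT OHT, shCDK12 and shCDK12 OHT, grouped by their labels. The authors deposited 1 table of raw counts per gene, without normalization, and the kit was stranded total RNA. The submitters' processing notes name STAR 2.7.5c, featureCounts 1.4.5-p1 and hg19. The annotation, the use of strand and the treatment of reads with several matches are not given in the sources used here. Symbols came from RefSeq by gene identifier for 23284 of 23434 rows, and 150 rows without one stayed in the tests.

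Counts were tested with edgeR 4.0.16 in R 4.3.3 (quasi-likelihood, two-sided, TMM factors from all genes), keeping genes whose normalized count averaged over 32, in fits of the 6 libraries compared and, for the difference of OHT responses, of all 12. P-values were adjusted by Benjamini-Hochberg over all genes tested and called under 0.05. CPM used TMM over 12 libraries. Intervals are at 95% and, like the floor of 3 counts, cover the error of counting or of the fit only. Depth ran from 1251695 to 10447836 counts, so that genes such as RNASEH2A, RNASEH2B and THOC1 are measured least precisely, most of all in shNT OHT. Replicates differed by more than sampling noise, with a chi-square per degree of freedom of 2.80 to 9.77.

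Same-numbered libraries of different groups deviated together little (median r 0.03, over 0.1 in 2 of 18 pairs). For different numbers the median r was −0.02, with 0 of 36 pairs over 0.1. The numbers were not used as a block, although a partial pairing is not excluded. Count ratios were compared by exact permutation. Pearson's r used log2 CPM with a prior count of 2. The edgeR fit of each comparison was tested on simulated data in its main setting only, and the alternative fits were not. Members and gene lists were chosen with earlier results of these data known. All members are named, with the 2 genes most alike to each and up to 4 genes per other list by adjusted p. Alternatives were DESeq2 1.42.0, upper-quartile normalization, no or another filter on low counts, the replicate block, binomial thinning to the smallest library, 1 fit of all libraries, each library left out, and, chosen after seeing the data, removal of a loess trend with gene span and the ratios with each library left out.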

Additional observations from a re-analysis of the deposited data

Results flagged for a closer look

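RNASEH2C, AQR and DHX9 had OHT responses that differed between the shRNA backgrounds in the test of the difference itself (edgeR, all 12 libraries). The difference, libraries labelled shCDK12 minus shNT, was −0.97 for RNASEH2C, −0.63 for AQR and −0.59 for DHX9 on the log2 scale. Each of the 3 fell with OHT within the libraries labelled shCDK12, where the test passed on its own (−0.62, −0.43 and −0.34 in that order). In shNT the log2 fold changes of 0.34, 0.19 and 0.25 did not pass. New CDK12 RNA was at the shNT level in the libraries labelled shCDK12 without OHT, which cannot decide whether the labels are right. The opposite OHT responses of Myc targets in the shRNA backgrounds put these labels in doubt. Both the sign of the fall and the differences rest on these labels. Were the shCDK12 groups exchanged, all 3 log2 fold changes would be positive in both backgrounds, and their differences would be smaller. That exchange was not tested.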

How the results depend on the processing

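Of 588 recomputed values of single members, 519 kept their direction and their side of the threshold, 32 lost a call, 14 gained one and 23 changed sign, all of the last among values that were not called. The cause was not tested unless it is named. Thinning every library to the smallest total, which leaves fewer counts, gave 3 members and 3217 genes for OHT in the libraries labelled shCDK12 (AQR and TOP1 were lost), 2 and 4495 for shCDK12 against shNT without OHT, 3122 genes with OHT and 3200 for the difference of responses. DESeq2 gave 3 members for shCDK12 against shNT without OHT (RNASEH2A and THOC1 were lost), upper-quartile normalization 5 for the difference of responses, where DDX5 and RNASEH1 were gained, and 1 fit of all 12 libraries 3 members for OHT in the libraries labelled shCDK12 (DDX5 and TOP1 were lost) and 3256 genes for OHT in shNT.

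Leaving out 1 library gave 0 to 1 members and 670 to 2523 genes for OHT in shNT, 4 to 7 and 5000 to 6500 for OHT in the libraries labelled shCDK12, 3 to 6 and 6425 to 7132 for shCDK12 against shNT without OHT, 1 to 3 and 3520 to 6238 with OHT, and 3 to 4 and 4609 to 5829 for the difference of responses. The lowest counts of members with OHT came without any 1 library of shCDK12 OHT. Where signs changed, the log2 values ran from −0.043 to 0.21 (RNASEH2A), −0.0099 to 0.19 (TOP1), −0.072 to 0.18 (DDX5) and −0.35 to 0.051 (THOC1) for OHT in shNT, −0.032 to 0.11 (AQR) and −0.10 to 0.15 (DDX5) for shCDK12 against shNT with OHT, and −0.39 to 0.048 (THOC1) for the difference of responses. For the log2 ratio of RNASEH2A to RNASEH2B, the differences ran from −0.87 to 1.54 for OHT in shNT, −0.14 to 0.54 for OHT in the libraries labelled shCDK12 and −2.22 to 0.19 for shCDK12 against shNT with OHT.

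The replicate block left 1 member (RNASEH2C) called for shCDK12 against shNT with OHT (RNASEH2A adjusted p = 0.0537, DHX9 adjusted p = 0.0564, edgeR) and dropped TOP1 for OHT in the libraries labelled shCDK12 (adjusted p = 0.0576, edgeR). Of 12 libraries 0 correlated best with their own number in every other group, a strict measure that does not exclude a partial pairing. With the block DDX5 for OHT in shNT changed sign to −0.0021. Signs also changed for OHT in shNT with the gene span trend removed (RNASEH2A −0.084, DDX5 −0.12), for RNASEH1 when thinned (0.25 for OHT in the libraries labelled shCDK12, 0.17 for shCDK12 against shNT with OHT, 0.13 for the difference of responses), for RNASEH2C in shCDK12 against shNT without OHT (0.0052 with upper-quartile normalization, 0.14 thinned), and for AQR with OHT (−0.010 with DESeq2, −0.014 with upper-quartile normalization, −0.045 thinned, −0.15 with the span trend removed). With that trend removed TOP1 passed for the difference of responses (−0.47, adjusted p = 0.0214, edgeR). Ratios without the added count kept their signs where they could be formed. For RNASEH2A to RNASEH2C with OHT in shNT, the groups overlapped with the added count (−0.25, exact permutation p = 0.2). They did not overlap without it (−0.26, exact permutation p = 0.1).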
